A study of Sus scrofa with 8 samples.

Results

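This account covers the nuclear-encoded genes of respiratory complexes II to V in peak lists of N6-methyladenosine (m6A), a methyl mark on adenosines of messenger RNA, from pig muscle. Members were genes in any list whose symbol began with SDHA, SDHB, SDHC, SDHD, UQCR, UQCC, ATP5 or COX followed by a digit, or was CYC1 or CYCS, so that assembly factors with such symbols are included. The rule found 27 of the 5650 gene identifiers that carried a peak in at least 1 list. Muscle came from 2 Jinhua males, a Chinese breed with more intramuscular fat, and from 2 Landrace males, a Danish breed, all aged 180 days. From each animal an immunoprecipitated library, enriched with an m6A antibody, and an input library were made, and the deposited result is 1 peak list per animal. The study's question was the role of m6A in intramuscular fat. The animals are called J1 and J2 for Jinhua and L1 and L2 for Landrace.

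The lists give the number of peaks in a gene, their start and end on 1 Ensembl transcript, counted from 1 at its 5' end, and the annotated part of the transcript. They hold no read counts or enrichment, so depth is unknown. Weak expression, low depth and absent methylation cannot be told apart where a call is missing, and in bulk muscle fewer cells of a type and less RNA per cell cannot be told apart either. With 2 animals per breed the smallest two-sided exact p is 0.33.

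Complex II oxidises succinate and passes the electrons to ubiquinone. Complex III moves them on to cytochrome c, and complex IV uses them to reduce oxygen. The proton gradient to which complexes III and IV contribute drives the ATP synthase, complex V. Oxidative muscle fibres are rich in these complexes, and most of their subunits are small proteins imported into mitochondria from the cytosol.

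Most called members carried a peak in every animal, and nearly all of them carried few peaks. Of the 27 genes, 15 (55.6%) were called in all 4 lists, where the share over all called genes was 43.8%. A further 6 were called in 3 lists, against 16.0% of all called genes, 1 in 2 lists and 5 in 1 list, against 24.3%. The members called were 22 in J1, 20 in J2, 20 in L1 and 23 in L2, which is 81.5%, 74.1%, 74.1% and 85.2% of the 27. Over all called genes the shares were 68.4%, 79.1%, 67.2% and 64.5% in the same order of animals. J2 thus had the longest list and, with L1, the fewest members, while L2 had the shortest list and the most members. Peaks in members numbered 28, 25, 24 and 27, 104 in all, and no gene had more than 3 in a list.

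**Figure D1:**
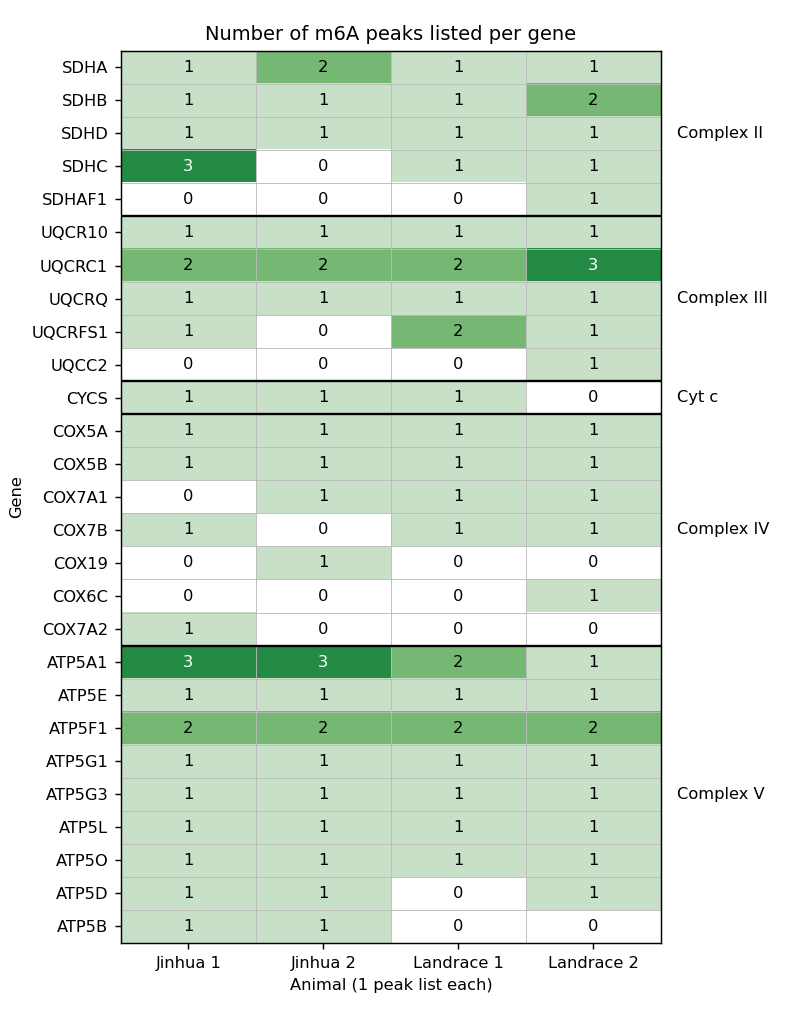
Number of m6A peaks listed for each of the 27 genes (rows, by complex) in each animal (columns), with 0 for no call. 15 rows are filled in all 4 columns, and ATP5B is the row filled in both Jinhua columns and in neither Landrace column.

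All 4 subunits of complex II carried peaks, and 3 of them did so in every animal. SDHA (ENSSSCG00000020686), the flavoprotein that oxidises succinate, had 1 and 2 peaks in J1 and J2 and 1 in each Landrace animal. Its shared peak in the coding sequence covered bases 1074 to 1230 of ENSSSCT00000031591 in J1, 1075 to 1236 in J2, and 1074 to 1229 in L1 and in L2. The starts of this peak lay within 1 base and the ends within 7 in the 4 animals. The additional SDHA peak, at bases 821 to 960, was in the list of J2 alone.

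SDHB (ENSSSCG00000020926), the iron-sulphur subunit that hands electrons on from SDHA, had its coding peak at bases 243 to 399 of ENSSSCT00000027692 in J1, 241 to 398 in J2 and 235 to 398 in L1. In L2 the coding peak covered bases 223 to 360, and a further peak annotated as 5' UTR adjoined it upstream, at bases 112 to 222. That upstream peak overlapped none of the peaks of the other 3 animals. SDHD (ENSSSCG00000015034), a membrane anchor that helps to bind ubiquinone, had 1 peak in each animal, annotated as coding and at or near the transcript start. It covered bases 1 to 150 of ENSSSCT00000016399 in J1, 9 to 164 in J2, 1 to 151 in L1 and 1 to 141 in L2.

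SDHC (ENSSSCG00000030318), the other membrane anchor, was the most uneven of the subunits of complex II, with 3 peaks in J1, none in J2 and 1 in each Landrace animal. The shared peak began at base 1 of ENSSSCT00000029845 and ended at base 151 in J1 and at base 114 in both Landrace animals. The 2 further peaks of J1, at bases 451 to 560 and 887 to 990, lay in the 3' UTR. The pair of Jinhua animals thus differed more from each other in SDHC than the Landrace animals did. SDHAF1, an assembly factor that helps to fit iron-sulphur clusters into SDHB, had 1 peak in L2 alone, annotated as 3' UTR and covering bases 471 to 570 of ENSSSCT00000026621.

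In complex III the peaks fell on a core subunit, the Rieske protein and small accessory subunits. UQCRC1 (ENSSSCG00000011356), a core subunit, had 2 peaks in J1, J2 and L1 and 3 in L2, all coding. Its downstream peak covered bases 1131 to 1289 of ENSSSCT00000012433 in J1, 1121 to 1289 in J2, 1123 to 1285 in L1 and 1128 to 1288 in L2. Its upstream peak covered bases 72 to 200, 81 to 180, 81 to 180 and 105 to 240 in the same order. Both peaks were present in all 4 animals, the downstream one at closer positions than the upstream one, and the additional peak of L2 lay between them at bases 471 to 600.

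UQCR10 (ENSSSCG00000024550), a small accessory subunit, had the only peak annotated as 3' UTR in every animal. It covered bases 236 to 387 of ENSSSCT00000031506 in both Jinhua animals, 236 to 388 in L1 and 235 to 386 in L2. The bases common to the 4 animals were 98.1% of the span, the highest share among the sites of members with 1 peak in each list. UQCRQ, another small subunit, had 1 coding peak from base 1 of ENSSSCT00000015612 in each animal, to base 128 in J1, 132 in J2, 128 in L1 and 130 in L2.

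UQCRFS1 (ENSSSCG00000027085), the Rieske iron-sulphur protein that passes electrons towards cytochrome c, had 1 peak in J1, none in J2, 2 in L1 and 1 in L2. The shared coding peak covered bases 86 to 220 of ENSSSCT00000030609 in J1, 76 to 200 in L1 and 85 to 220 in L2, and the additional one, in L1, covered bases 492 to 647. Like SDHC, the gene was called in all animals but J2. UQCC2, which assists the early assembly of cytochrome b, had 1 coding peak at bases 11 to 110 of ENSSSCT00000030529 in L2 alone. UQCRC2, the other core subunit, was not among the members because the lists give its identifier no symbol. The gene name table assigns it to ENSSSCG00000007845, which had 1 coding peak at bases 451 to 587 in J2 alone. CYC1, which the rule names, had no call by symbol in any list.

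Cytochrome c (CYCS, ENSSSCG00000016714), the soluble carrier between complexes III and IV, was called in every animal but L2. Its coding peak ended at base 307 of ENSSSCT00000018195 in the 3 animals and began at base 110 in J1, 119 in J2 and 153 in L1. Processed copies of such genes are common in mammalian genomes, and how reads that match several places were counted is not given in the sources used here.

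Of the 7 called genes of complex IV, 2 were in all 4 lists and 3 in a single list. COX5A (ENSSSCG00000024316) and COX5B (ENSSSCG00000008195), both matrix-side structural subunits, were the 2 shared ones, each with 1 coding peak per animal. For COX5A it covered bases 17 to 172 of ENSSSCT00000027931 in J1, 9 to 171 in J2, and 7 to 160 in each Landrace animal. For COX5B it covered bases 84 to 240 of ENSSSCT00000008974 in J1, 87 to 244 in J2, 86 to 240 in L1 and 84 to 239 in L2. COX5B starts lay within 3 bases of each other and COX5A starts within 10.

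The remaining subunits of complex IV were called in some animals of each breed or in 1 animal only. COX7A1 (ENSSSCG00000025533), the isoform of heart and skeletal muscle, had a coding peak from base 1 of ENSSSCT00000023610 to base 110 in J2, 102 in L1 and 120 in L2, and none in J1. COX7A2, its widely expressed counterpart, had a coding peak at bases 11 to 160 of ENSSSCT00000004950 in J1 alone, so no animal had both isoforms called. COX7B had a peak at bases 25 to 179 of ENSSSCT00000035420 in J1, 28 to 181 in L1 and 25 to 180 in L2. It was the third gene called everywhere but in J2, after SDHC and UQCRFS1. COX6C had 1 peak in L2, at bases 171 to 270 of ENSSSCT00000006661 and annotated as 5' UTR, and COX19, which helps to deliver copper during assembly, had 1 coding peak in J2, at bases 191 to 290 of ENSSSCT00000008282.

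The ATP synthase had the highest number of called genes, 9, of which 7 were called in all 4 lists. Its rotor ring is built from subunit c, whose mature protein is the same whichever of several genes encodes it. Of these genes ATP5G1 (ENSSSCG00000017544) and ATP5G3 (ENSSSCG00000015973) each had 1 coding peak in every animal. The ATP5G3 peak covered bases 37 to 194 of ENSSSCT00000017392 in J1, 35 to 193 in J2, 34 to 191 in L1 and 39 to 194 in L2. The ATP5G1 peak covered bases 7 to 196 of ENSSSCT00000019098 in J1, 1 to 186 in J2, 1 to 119 in L1 and 1 to 120 in L2. The ATP5G3 peak was thus placed alike in all 4 animals. The ATP5G1 peak ended at least 66 bases further downstream in each Jinhua animal than in either Landrace animal. The ATP5G1 comparison was made after the positions were seen and was not tested.

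Of the stalk subunits, ATP5F1 (ENSSSCG00000006789; subunit b) had 2 peaks in each animal. The upstream, coding one covered bases 47 to 203 of ENSSSCT00000007437 in J1, 39 to 196 in J2, 41 to 196 in L1 and 29 to 196 in L2. The downstream one covered bases 791 to 890, 781 to 880, 681 to 811 and 781 to 880 in the same order. That of L1 was annotated as coding and the other 3 as 3' UTR, and the 4 shared only 21 bases. ATP5O, which joins the stalk to the catalytic head, had a coding peak at bases 7 to 164 of ENSSSCT00000013174 in J1, 1 to 162 in J2, 1 to 110 in L1 and 1 to 152 in L2. ATP5E, a subunit of the central stalk, had one from base 1 of ENSSSCT00000033972 to base 160, 110, 149 and 157 in that order. ATP5L, subunit g of the membrane part, had one at bases 321 to 437 of ENSSSCT00000032072 in J1, 324 to 440 in J2, 272 to 420 in L1 and 261 to 360 in L2. The ATP5L peak lay further downstream in both Jinhua animals than in both Landrace animals, although all 4 overlapped. Ends of the COX5A, ATP5O, shared SDHA and downstream UQCRC1 peaks also parted the breeds. SDHA did so narrowly, at bases 1230 and 1236 in Jinhua against 1229 in both Landrace animals. UQCRC1 ended at base 1289 in both Jinhua animals, against 1285 and 1288. Starts of the COX5A and SDHB coding peaks parted the breeds as well. In the remaining sites with 1 peak in each animal, UQCR10 and ATP5G3 included, ends did not part them. Such shifts were picked out after the positions were seen, were not counted over all genes and were not tested.

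ATP5A1, ATP5B and ATP5D were the 3 called genes of complex V whose number of peaks was not the same in all animals. ATP5A1 (ENSSSCG00000004499), the alpha subunit, had 3 coding peaks in each Jinhua animal, 2 in L1 and 1 in L2. The peak at bases 1 to 100 of ENSSSCT00000004971 had the same ends in J1, J2 and L2. The one near base 1421 was in J1 (to base 1575), J2 (to base 1560) and L1 (1431 to 1580). The middle one, at bases 658 to 770 in J1 and 643 to 790 in J2, was in neither Landrace list, although L1 had a peak 40 bases downstream, at 831 to 950. ATP5A1 was called in all 4 animals, but no position in it was.

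ATP5B (ENSSSCG00000000405), the catalytic beta subunit, had 1 coding peak in each Jinhua animal and none in either Landrace animal. It covered bases 8 to 250 of ENSSSCT00000000438 in J1 and 15 to 250 in J2, a span of 243 bases of which 236 were shared. No other member parted the breeds in this way. Jinhua-only calls thus held for 1 of 27 members and 5.15% of all called genes, and Landrace-only calls for 0 of 27 members and 2.42% of all called genes. ATP5D, the delta subunit of the central stalk, had a coding peak at bases 11 to 130 of ENSSSCT00000014675 in J1, 31 to 170 in J2 and 1 to 100 in L2, and none in L1.

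**Figure D2:**
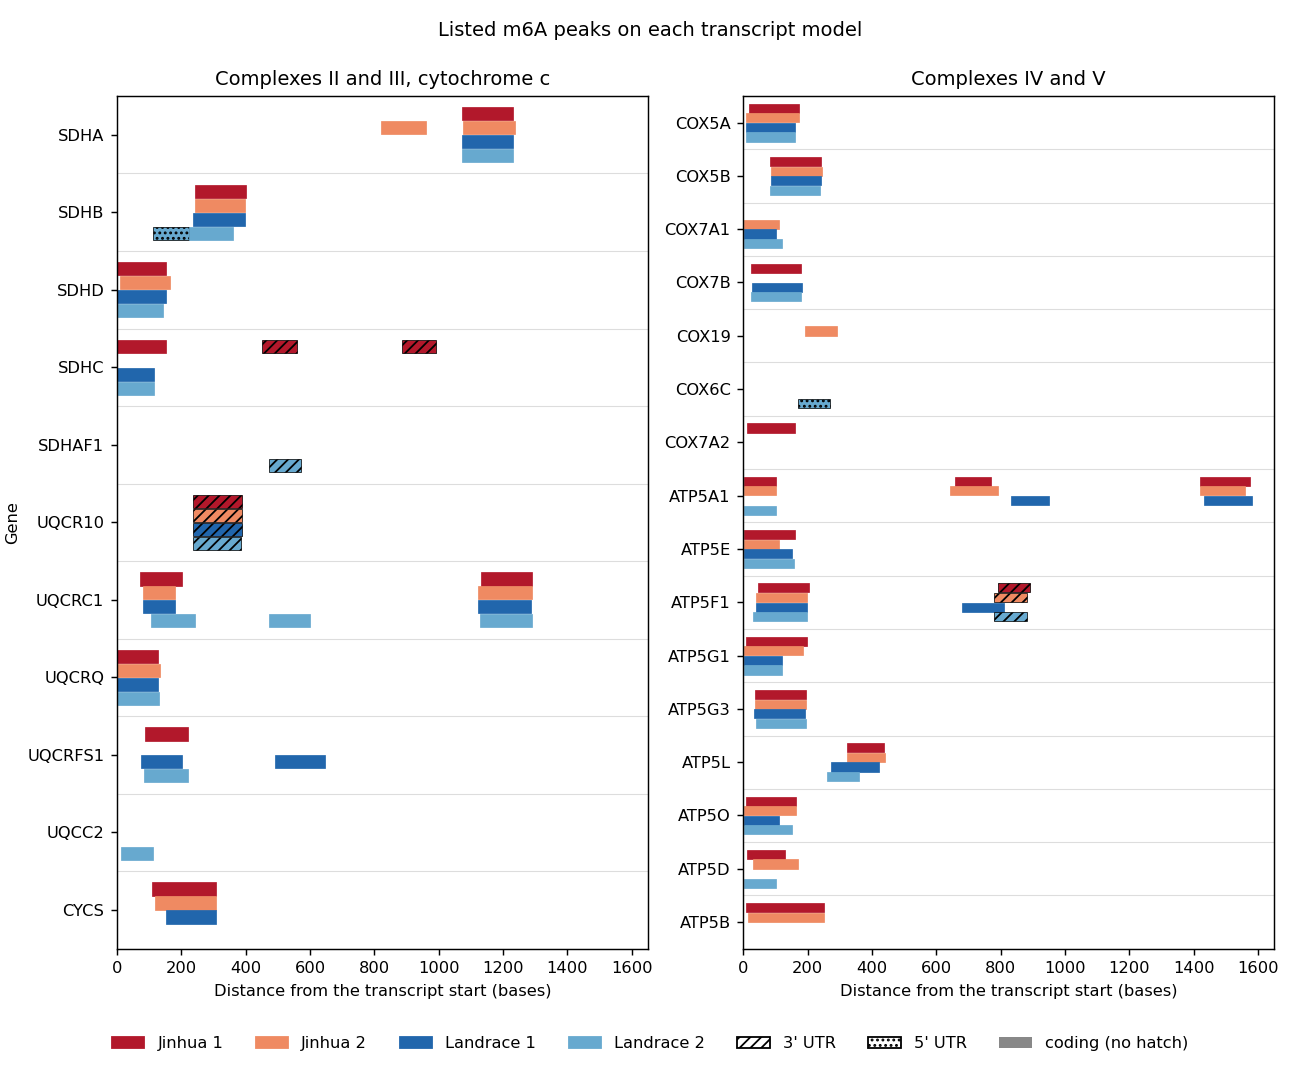
Listed peaks (bars) on the transcript model of each gene, in bases from the transcript start, with 1 line per animal and hatching for peaks annotated in a UTR. UQCR10, COX5B, ATP5G3 and SDHA have nearly the same ends in all 4 animals, and the middle ATP5A1 peak and the ATP5B peak are drawn for the Jinhua animals alone.

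More of the members' sites than of all sites were present in all 4 animals. Overlapping or adjoining peaks of the 4 lists were merged into sites, which gave 37 in the 27 genes. A site was present in all 4 lists in 16 of the 37 (43.2%), against 27.1% of the 9414 sites of all genes with complete positions. A further 8 sites were in 3 lists, 2 in 2 lists and 11 (29.7%) in 1 list, the last against 39.3% over all genes. Of the 15 members called in all 4 animals, 14 had a site in all 4, every one but ATP5A1, a share near the 92.2% over all genes. Such a site needs only overlapping or adjoining peaks. The 2 sites held by both Jinhua lists and neither Landrace list were those of ATP5A1 and ATP5B, against 5.59% of all sites, and no member site was held by both Landrace lists alone, against 3.38%. In the 15 sites with 1 peak in each of the 4 animals, the bases common to all 4 had a median of 85.7% of the span. The lowest shares were those of the downstream site of ATP5F1, with 21 of 210 bases, and of ATP5L, at 20.6%.

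**Figure D3:**
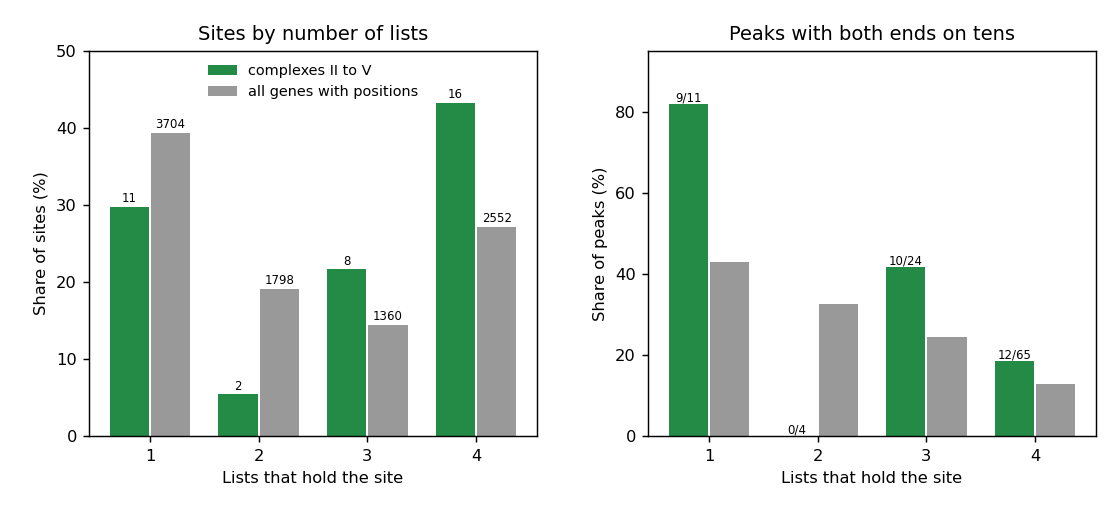
Left, share of sites (%) held by 1, 2, 3 or 4 lists, with the number of sites above each bar. Right, share of peaks (%) in such sites whose start ends in 1 and whose end is a multiple of 10, with the counts for members above their bars. Members have 16 of 37 sites in all 4 lists, and 9 of the 11 peaks in their single-list sites have such ends.

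Peaks of members were mainly annotated as coding, and many, though not all, lay close to the transcript start. Of the 104 peaks, 92 were annotated as coding, 10 as 3' UTR and 2 as 5' UTR. These labels depend on the transcript models, whose 5' UTR lengths are not given. The part of annotation in the coding share was not tested. The 3' UTR peaks belonged to UQCR10 (4), ATP5F1 (3), SDHC (2) and SDHAF1 (1). Peaks from base 1 numbered 27, all annotated as coding, with 14 of them in complex V, 6 in complex II, 4 in complex III and 3 in complex IV. They formed 9 sites, of which 5 were in all 4 lists and 4 in 3, in the genes SDHC, SDHD, UQCRQ, COX7A1, ATP5A1, ATP5D, ATP5E, ATP5G1 and ATP5O. Over all genes 7.37% of sites held base 1, and of those 37.6% were in all 4 lists, 16.3% in 3 and 28.1% in 1. The share of peaks that began within the first 50 bases was 14 of 28, 12 of 25, 11 of 24 and 14 of 27 for members in J1, J2, L1 and L2. It was 33.3%, 30.4%, 29.2% and 30.4% for complex I genes and 11.6%, 10.7%, 12.6% and 10.8% for all genes other than the members. This measure was chosen after the positions were seen and was not tested.

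Within every list the members had fewer peaks per called gene than all other called genes. The members' peaks were more often annotated as coding and less often as 3' UTR. Peaks per called gene were 1.27 for members in J1, 1.25 in J2, 1.2 in L1 and 1.17 in L2, against 1.67, 1.73, 1.71 and 1.70 for all other genes. The mean difference over the 4 animals was -0.48 ± 0.06 peaks (SD, n = 4). Coding shares were 85.7% (95% Wilson interval 68.5 to 94.3), 92.0% (75.0 to 97.8), 95.8% (79.8 to 99.3) and 81.5% (63.3 to 91.8) for members, against 68.7%, 71.1%, 70.1% and 71.3% for all other genes. Only the counting error of peaks enters these intervals. The mean difference was 18.4 ± 6.55 percentage points (SD, n = 4), higher in members in 4 of 4 lists. For the 3' UTR the shares were 14.3%, 8.0%, 4.17% and 11.1% against 24.4%, 21.3%, 21.3% and 21.7%, a mean difference of -12.8 ± 3.23 points. Each of these 3 measures gave p = 0.13 in the exact sign-flip permutation test over animals, two-sided, the smallest that 4 animals allow, and 0.25 after Benjamini-Hochberg adjustment over 6 tests, so none passed.

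The lists give no transcript lengths. The furthest base covered by any peak, a position that depends on where peaks were called, had a median of 250 for members, 335 for complex I genes and 1170 for all other genes. The part of transcript length in these differences was not tested. Set against the other called genes with 1 or 2 peaks in every list, the difference in coding share was 18.8 points.

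Set against the 26 called genes of complex I, taken as symbols that begin with NDUF, the members stood closer and, for the coding and 3' UTR shares, on both sides. Coding shares of complex I genes were 87.5%, 82.6%, 83.3% and 87.0%, with a mean difference of 3.66 ± 8.64 points (SD, n = 4, exact permutation p = 0.5, adjusted p = 0.5). Peaks per gene differed by 0.09 ± 0.09 and the 3' UTR share by -5.51 ± 6.58 points (SD, n = 4, exact permutation p = 0.25 and adjusted p = 0.3 for both). Of the complex I genes 15 of 26 (57.7%) were called in all 4 lists, beside 15 of 27 members. With only 4 animals this does not show that the sets are alike.

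**Figure D4:**
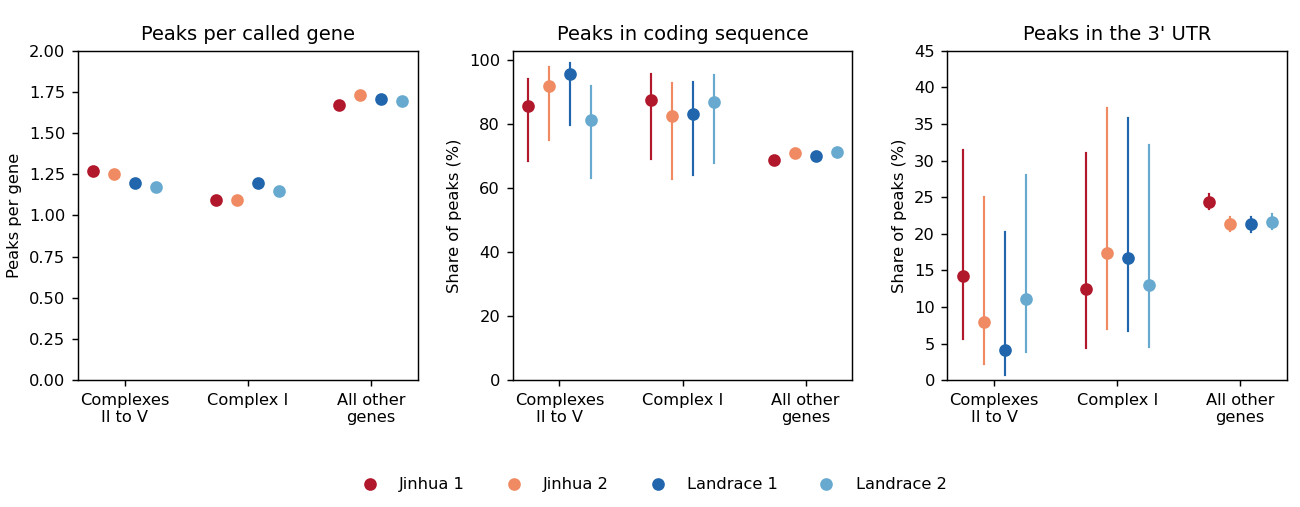
Peaks per called gene, share of peaks in coding sequence (%) and share in the 3' UTR (%) for members, complex I genes and all genes other than the members, 1 point per animal, with 95% Wilson intervals as lines on the shares. In all 4 animals the members' points lie below all other genes for peaks per gene and the 3' UTR and above them for coding sequence.

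The breeds did not differ in the number of members called or in their peaks beyond the spread between animals. An average of 21.0 ± 1.41 members was called per Jinhua animal and 21.5 ± 2.12 per Landrace animal (mean ± SD, n = 2 animals each, two-sided exact permutation test, p = 1). Their peaks averaged 26.5 ± 2.12 per Jinhua animal and 25.5 ± 2.12 per Landrace animal (exact permutation p = 0.667), and the coding share 88.9% ± 4.44 and 88.7% ± 10.1 (exact permutation p = 1). By complex the calls ran in different directions. Complex V had 9 genes and 12 peaks in each Jinhua animal, against 7 and 8 genes and 9 peaks each in L1 and L2. Complexes II and III each had 4 and 3 genes in the Jinhua animals and 4 and 5 in the Landrace animals. Complex IV had 4 and 4, against 4 and 5. Genes of complex V kept the breeds apart, in the direction also seen for all called genes, 3863 and 4468 in Jinhua against 3798 and 3647 in Landrace. Peaks of complex III ran the other way, with 5 and 4 in the Jinhua animals and 6 and 7 in the Landrace animals. These counts by complex were set side by side after they were seen and carry no test.

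The members are a part of the genes that build these complexes. Of the 42 subunit and cytochrome c genes that fit the rule and have an entry in the annotation tables or in the lists, 24 were called by symbol, including 4 of 4 for complex II, 4 of 8 for complex III, 6 of 14 for complex IV and 9 of 15 for complex V. Of 17 assembly factors that fit the rule 3 were called, SDHAF1, UQCC2 and COX19, each in a single list with 1 peak. Of the 24 called subunits and cytochrome c 15 were in all 4 lists and 2 in 1. The share of all annotated genes that were called was not computed, so these counts and those for genes outside the rule have no baseline. UQCRC2, whose identifier has no symbol in the lists, is counted here as not called. COX4I1 and CYC1, central subunits of complexes IV and III, were among the annotated genes without a call by symbol.

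Of 31 annotated genes of the same pathway whose symbols the rule does not catch, 12 were called by symbol. NDUFA4, a subunit of complex IV despite its name and so also counted above under NDUF, had 1 coding peak from base 1 in each animal, to base 143 in J1, 142 in J2, 120 in L1 and 143 in L2. C14orf2, a small subunit of the ATP synthase, had 1 peak in J1 and in both Landrace animals, and ATPIF1, the inhibitor of that enzyme, had 1 in J1 alone. Of the assembly factors of complex IV, PET100 was called in both Jinhua animals and in L2, COA3 in both Jinhua animals and in L1, and SCO1 with 3 peaks in J2 alone. None of these 3 was called in all 4 animals. Of 9 transcriptional regulators of mitochondrial biogenesis 3 were called. ESRRA, a nuclear receptor, had 2 peaks in each animal, PPARGC1A, its coactivator, had 1 in each Jinhua animal and in L1, and PPRC1 had 2 in J2 and in L1 and 3 in L2.

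Of 12 skeletal muscle markers 9 were called in each of the 4 lists, and MYH4, TNNT3 and TNNI2 were called in none. Of 8 markers of slow, oxidative fibres, 3 were called in J1, 5 in J2 and 2 in each Landrace animal. J2 had the most of them and also the highest share of all called genes, 79.1%, against 68.4% in J1, 67.2% in L1 and 64.5% in L2. The part of fibre type in the calls of complex V was not tested. Endothelial markers were called in 4 of 5 in every list, adipocyte markers in 3, 3, 3 and 2 of 6, and macrophage markers in 2, 2, 4 and 3 of 5, in the order J1, J2, L1 and L2.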

How the data were processed

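Per the labels' protocols, mRNA of muscle was purified, immunoprecipitated with an m6A antibody and sequenced beside its input from a stranded kit. TopHat2 2.0.14, with Sscrofa10.2 and susScr3 as builds, appears in the submitters' processing notes. Which program called the peaks, at what threshold and on which annotation is not stated there. Each deposited list belongs to 1 animal, and no genome coordinates are printed.

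The members and gene lists were chosen with earlier results of these data known. A gene was called with 1 or more peaks. Positions of all members were complete. Sites over all genes leave out 228 genes that exceed 4 peaks in some list, since 2 lists stop there. Shares by location used peaks with a location. For all other genes these were 7079 of 7708 peaks in J2 and 5960 of 6447 in L1, and every peak in J1 and L2. Peaks that overlapped or adjoined formed sites. Breed means were compared by exact permutation and members with other genes by exact sign flips over animals, with Python 3.11.15, NumPy 2.4.6 and SciPy 1.17.1. These p-values measure the spread between these 4 animals. Merging and tests were checked on simulated lists. Values in every list are given for members called in all lists, parting the breeds or with several peaks. Of the pathway genes outside the rule at most 10 were to be named. The alternatives were each animal left out, subunits only, names added from the gene name table, other merging rules, wider peaks and other comparison genes.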

Additional observations from a re-analysis of the deposited data

How the results depend on the processing

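The breed differences in members were too small to keep a direction. With each animal left out in turn, the difference in genes called, -0.5, ranged from -2 to 1, that in peaks, 1, from -0.5 to 2.5 (4 among peaks of 150 bases or more), and that in coding share, 0.20 points, from -6.98 to 7.38. With subunits and cytochrome c alone the coding share difference was -1.23 points. Fits with the replicate number as a block gave the same differences, -0.5 genes and 1 peak, each with exact p = 1, and the number names different animals in each breed, so it pairs nothing. Sites in every list numbered 16 and were 7 among peaks of 150 bases or more, and sites in 1 list numbered 11, 7 without Landrace 2 (7 to 11 with each animal left out) and 3 among such wide peaks. With an animal left out a breed rests on 1 list, so breed-specific features grow by construction. Jinhua-only sites then numbered 4 to 5 against 2, Landrace-only sites 1 to 4 against 0, Jinhua-only genes 2 in each case against 1 and Landrace-only genes 0 to 3 against 0. With peaks within 50 bases joined, 1 Jinhua-only site was left, because the middle ATP5A1 peaks joined that of Landrace 1. The differences from all other genes in coding share and 3' UTR share kept their direction under every alternative tried. That in peaks per gene shrank to -0.02 (exact permutation p = 0.5), against -0.48 as reported, when the other genes were held to 1 or 2 peaks, a limit on the compared number itself that was not applied to members. The lists give no depth, so no call can be weighed by it.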

Other observations

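Listed peaks came in 2 forms, and single-list sites had more of one of them than sites of all 4 lists. Of the 104 member peaks, 31 (29.8%) began at a base ending in 1 and ended at a multiple of 10, as windows stepped by 10 bases would. In single-list sites this held for 9 of 11 peaks (81.8%), with a median width of 110 bases, and in sites of all 4 lists for 12 of 65 (18.5%), with a median width of 154. In between there was no steady order, with 0 of 4 peaks in sites of 2 lists and 10 of 24 (41.7%) in sites of 3. Over all genes with positions the shares were 42.9%, 32.5%, 24.4% and 12.9% in sites of 1, 2, 3 and 4 lists, and 23.1% of all peaks. SDHAF1, UQCC2, COX19 and COX6C, each called in 1 animal, all had such a peak of exactly 100 bases, as did ATP5A1 at its start in 3 animals. UQCR10, COX5B, ATP5G3 and the shared SDHA peak had none. The peak caller is not stated, and the part of the calling step in these forms was not tested.

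SDHC, UQCRFS1 and COX7B were called in every animal but Jinhua 2, whose list held the most genes of the 4, 4468. Each of the other animals lacked 1 member that the remaining 3 had, which was COX7A1 for Jinhua 1, ATP5D for Landrace 1 and CYCS for Landrace 2. Landrace 2, with the shortest list of 3647 genes, held 3 of the 5 members called in a single list. Over all genes these counts were not split by animal, so they have no share beside them.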
